A study of Mus musculus with 5 samples.

Results

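The 100 probes described here had a higher WT signal on the array of wild-type myeloid progenitors (CMP) than on the other 4 arrays. For 29 of them it was less than 2 times the highest of those. They were chosen by the WT signal alone, from 23473 mouse probes on 5 arrays. A probe qualified when its WT signal, less the median of the blank spots of the same array, was under 100 on each of the other 4 arrays. Of the 14414 probes that qualified (61.4% of all), the 100 with the highest WT signal on the CMP array were taken, with ties broken by probe ID. On that array 4049 probes were as bright as the dimmest of the 100, so the set holds 2.47% of the probes at that level.

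Each 2-colour array compared Balb/c mouse cells transduced with a retroviral vector for wild-type IL7R (WT, Cy5) with cells given a mutant IL7R named INS (Cy3). The CMP array held the CMP fraction of lethally irradiated recipients of transduced KSL cells, sorted and pooled around day 40 and taken, per the labels, from samples with a myeloid disorder. The CLP culture array held transduced CLP cells kept for 5 to 7 days with OP9 stroma, SCF, IL7 and Flt3 ligand. The B cell array held IgM+B220+ cells from recipients given 4 Gy and transduced CLP cells, around day 60, with the INS cells labelled leukemic. The KSL culture array held transduced KSL cells after 4 to 5 days with added cytokines. The T-ALL array held T-cell leukemias from KSL cells that carried intracellular Notch1 in addition to either IL7R vector, around day 30 to 40. Every group, WT included, carried an introduced IL7R vector, and cells had been pooled before RNA isolation.

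IL7R is the receptor chain that binds interleukin-7 and signals with the common gamma chain through JAK kinases and STAT5. It is used mainly by lymphoid precursors. Common myeloid progenitors arise from stem and multipotent progenitors of the KSL type, give rise to granulocytes, macrophages, red cells and platelets, and normally carry little IL7R. The probe IDs are not paired with genes in the files used here (0 of 23473 IDs were found in the mouse gene table), so probes are given by ID. Whether the labelled CMP cells carry the defining myeloid markers was therefore not checked, no probe sequence is printed, and the roles of the probed genes are not given.

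One array was made per comparison, with 1 sample in each channel and no dye swap. No test between groups was therefore possible, and each difference below is a value of single arrays with no replicate check. Fewer cells of a type and less RNA per cell cannot be told apart in such samples. The CMP array was the dimmest. Its median probe lay 7 above the blank in WT, against 20 to 26 on the other arrays, and its photomultiplier gain in WT was 36 against 37 and 38. Gain in INS was 37, against 39 to 42. Signals below are scanner intensities less the array's median blank spot, not scaled between arrays, and they set no probe against another as a level of expression.

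The set was dim. In WT CMP cells the signal ran from 109 to 1793 with a median of 144.5. Only 25 of the 100 probes reached 200 and 6 reached 500. At the limit, M400012460 (rank 99) had a WT CMP signal of 111 and M300000500 (rank 100) one of 109. The first probes left out, M200003428 and M200004673, had 108 each. These values chose the probes and are given as a description.

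On the other arrays the WT signal of the 100 had medians of 39 in the CLP culture, 35.5 in B cells, 52 in the KSL culture and 33.5 in T-ALL. The highest of the 4 had a median of 70, and was 80 or more for 37 probes. It lay in the KSL culture for 45 probes, in the CLP culture for 26, in T-ALL for 16 and in B cells for 13. WT CMP signal was 1.14 to 28.9 times this highest value, with a median of 2.57. It was at least 5 times for 20 probes, at least 10 times for 11, and under 2 times for 29. With each array scaled to its 75th percentile, which lifts the dim CMP array, the median was 9.55 and all 100 were at 2 times or more, 93 at 5 or more and 45 at 10 or more. Most of the 100 were therefore not silent in WT elsewhere: 89 exceeded the blank limit on all 4 other arrays, and none was below it on all 4. Passing this limit was common on these arrays. Taken singly, they had 93 to 99 of the 100 above it, against 79.1% to 83.2% of all probes and 6.29% to 8.55% of blank spots. The blank limit is the trimmed mean of the blank spots plus 2 SD.

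**Figure D1:**
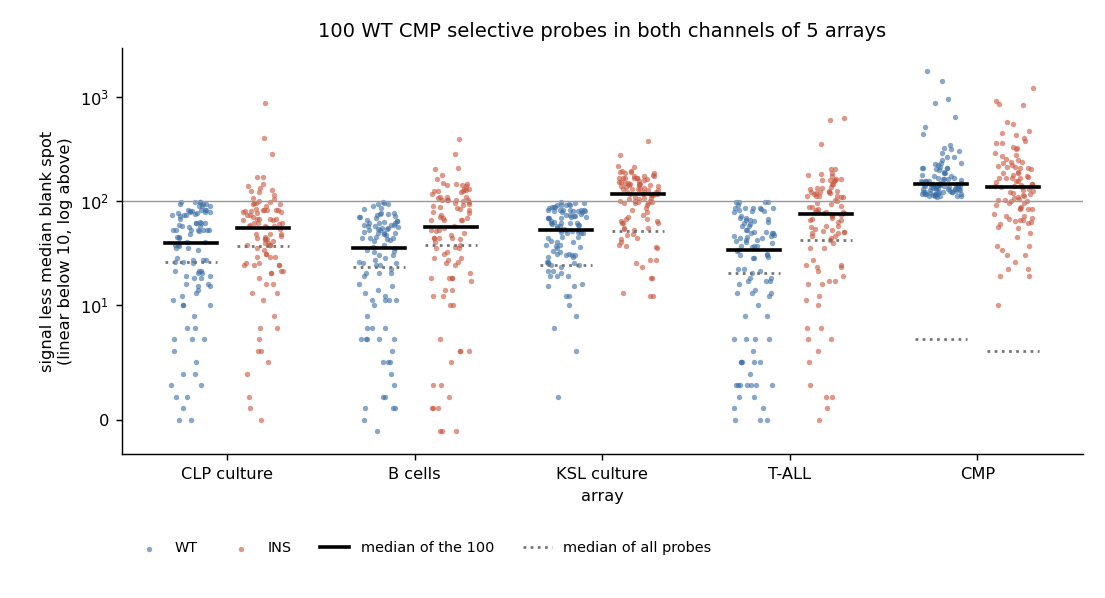
Signal less the median blank spot (vertical axis, linear below 10 and logarithmic above) of the 100 probes in the WT and INS channel of each array, with 1 point per probe, black bars for the median of the 100 and dotted bars for the median of all probes. WT points are capped at 100 on 4 arrays and start at 109 on the CMP array because of the rule, while INS points, which the rule did not use, have a median of 136.5 on the CMP array and 55 to 116 elsewhere.

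The brightest member, M300006757, had WT signals of 6 in the CLP culture, 5 in B cells, 62 in the KSL culture, 4 in T-ALL and 1793 in CMP cells. Its INS signals were 11, 10, 123, 8 and 1218 in the same order. Both channels were thus high on the CMP array, clearly lower in the KSL culture and near the blank on the other 3. INS over WT in CMP cells was -0.48 on the log2 scale after the processing used throughout (normexp with an offset of 50, then loess within the array).

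M200002070, second in WT CMP cells, had WT signals of 98, 49, 40, 0 and 1422 in the same order of arrays. Its INS signals were 882, -1, 212, 2 and 584. INS over WT was 5.11-fold higher in the CLP culture and 2.14-fold lower in CMP cells. The local background around its CMP spot was 1263 in WT, so its WT signal less that background was only 173. With the local background subtracted, its CMP ratio turned to higher in INS (log2 0.49).

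M200005492 had WT signals of 27, 70, 91, 31 and 961, and INS signals of 104, 106, 173, 609 and 930. Its CMP signals were alike in both channels, and INS T-ALL cells also had a high signal. M400011042 had WT signals of 8, 75, 31, 13 and 873, against INS signals of 25, 17, 52, 1 and 100. It was high in WT CMP cells and far lower in INS CMP cells. M300004997 had WT signals of 38, 30, 36, 63 and 641 and INS signals of 24, 53, 67, 90 and 856, so it was high on the CMP array in both channels and on no other.

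**Figure D2:**
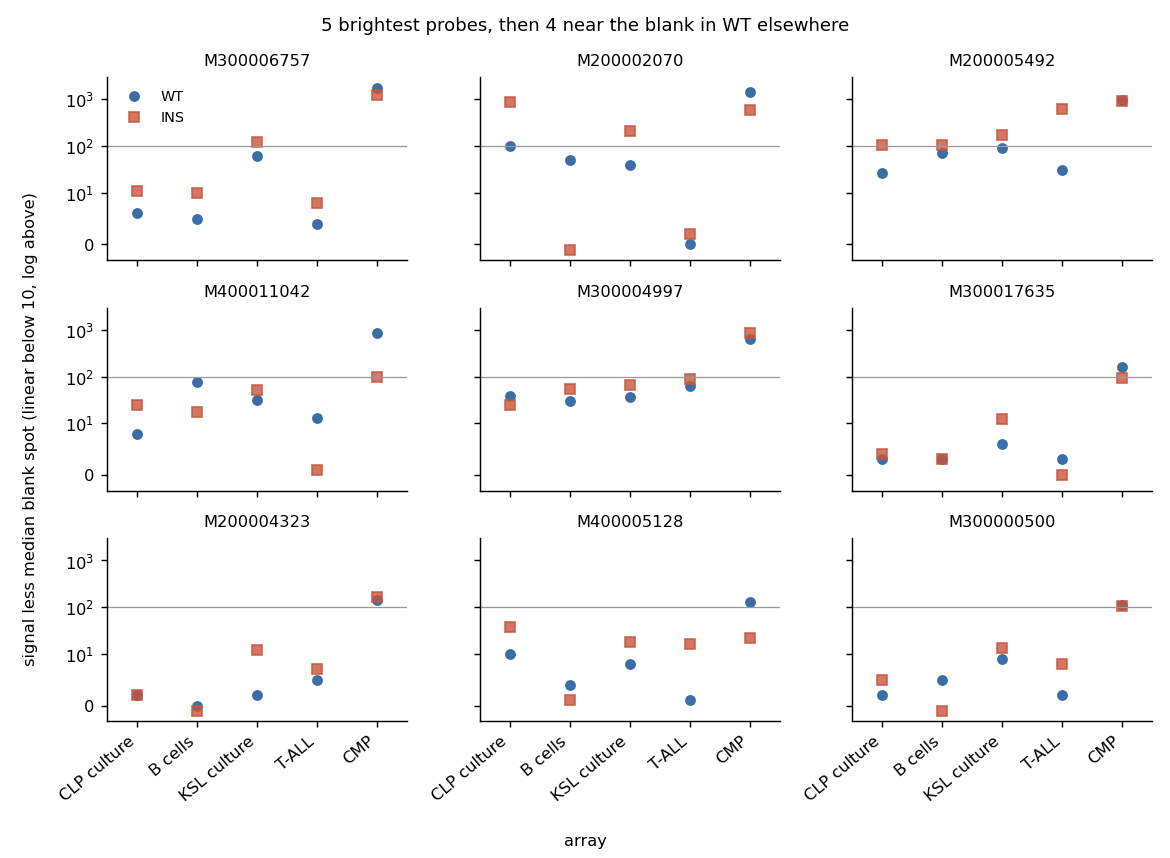
Signal less the median blank spot (vertical axis, linear below 10 and logarithmic above; the grey line marks 100) on each array for 9 probes, in WT (circles) and INS (squares). The first 5 panels are the brightest members, from M300006757 (1793 in WT CMP) to M300004997 (641), and the last 4 are the members at 10 or less in WT on all 4 other arrays.

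Of the 100 probes, 4 had a WT signal of 10 or less on every other array. They were picked out after their values had been seen. M300017635 had WT signals of 3, 3, 6, 3 and 161 and INS signals of 4, 3, 12, 0 and 92. M200004323 had 2, 0, 2, 5 and 140 in WT and 2, -1, 12, 7 and 167 in INS. M300000500 had 2, 5, 9, 2 and 109 in WT and 5, -1, 13, 8 and 108 in INS. These 3 were therefore highest on the CMP array in both channels, by a wide margin. M400005128 differed: WT was 10, 4, 8, 1 and 131, and INS was 38, 1, 18, 16 and 22, with no CMP peak in INS. For M300000500 the WT CMP signal less its local background was only 8, and for M200004323 it was 41, against 152 for M300017635.

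The INS channel was not used by the rule and shows whether the same probes stood out in the mutant CMP cells. Both channels share the spot and the array, so it is not a second array. In INS CMP cells the 100 probes ran from 10 to 1218 with a median of 136.5, and all 100 exceeded the blank limit, as did 58.2% of all probes and 4.20% of blank spots. Their median lay at percentile 86.3 of all probes in INS CMP cells, next to 85.0 in WT, and between 55.4 and 60.2 in INS on the other arrays.

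INS signal was higher on the CMP array than on each of the other 4 for 54 of the 100 probes, against 4.01% of all probes. It was at least 2 times the highest of the other 4 for 26 probes, against 1.22% of all. Without the KSL culture array these were 39 probes, against 2.18% of all. Because the CMP array was dim, scaling each channel to its 75th percentile raised the number to 93 of the 100, but also the share of all probes to 30.4%. By percentile within the channel, 99 of the 100 ranked highest on the CMP array, against 42.7% of all probes. In WT, which the rule used, all 100 did, against 39.6% of all probes. Their WT percentiles were 82.8 or above there and at most 70.3 elsewhere. INS was read from the same spots, so its ranks are not independent of that choice.

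**Figure D3:**
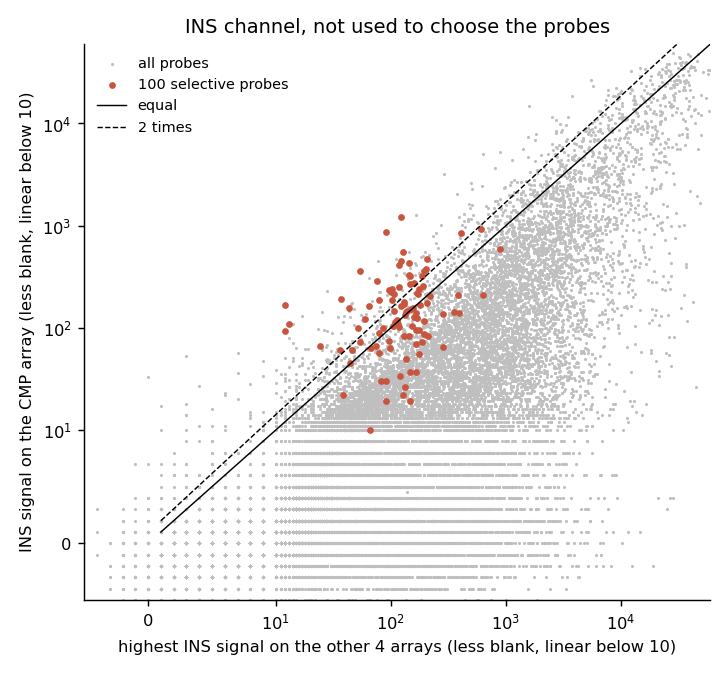
INS signal on the CMP array (vertical axis) against the highest INS signal on the other 4 arrays (horizontal axis), both less the median blank spot and logarithmic above 10; grey points are all 23473 probes and red points the 100. Of the red points, 54 lie above the solid line of equal signal and 26 on or above the dashed line of 2 times.

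An INS signal of 100 or more on the CMP array and under 100 on the other 4 was found for 12 of the 100, against 0.226% of all probes. Their INS CMP signals ran from 100 to 856. The brightest were M300004997 at 856 and M200008194 at 360, the latter named after its value had been seen. M200008194 had WT signals of 10, 14, 25, 7 and 208 and INS signals of 16, 26, 54, 23 and 360. When the 100 brightest were taken on the INS channel in the same way as on WT, 19 probes were in both sets. These 100 started at an INS CMP signal of 65, and 12582 probes qualified.

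In INS, 70 of the 100 reached 100 on at least 1 of the other 4 arrays: 28 on 1 array, 20 on 2, 16 on 3 and 6 on all 4. The other 30 stayed under 100 on all 4, as did 12582 of all 23473 probes. Shares of all probes by the number of arrays reached are not given here. By array, 59 did so in the KSL culture, 37 in T-ALL, 30 in B cells and 14 in the CLP culture. Over all probes the shares were 41.5%, 38.8%, 37.5% and 36.2%. The INS gains were highest, at 42, on the KSL culture and T-ALL arrays. The part of gain in this order was not tested. The highest INS signal outside the CMP lay in the KSL culture for 56 probes, in T-ALL for 24, in B cells for 12 and in the CLP culture for 8.

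INS over WT on the CMP array shares its WT values with the rule, so it is described only. As scanned, INS over WT (Cy3 over Cy5, nothing subtracted) had a median of 0.964 for the 100 and 1.88 for all probes. Blank signal is part of this ratio and weighs more in dim probes. Median signal less the blank was 7 in WT and 6 in INS over all probes, against 144.5 and 136.5 for the 100. After processing, the log2 ratio of the 100 ran from -2.39 to 1.33 with a median of -0.01, against -0.02 over the 17286 detected probes. It was below 0 for 50 probes and above 0 for 50. Loess sets the balance at each brightness, and the place of the set relative to the detected probes of the array depended on the method. It lay slightly above them with an offset of 10 (0.0015 against -0.035) and with the local background subtracted (-0.016 against -0.045). Other ways of computing the ratio put it below them. The medians were -0.22 against -0.03 with median centring, -0.29 against -0.17 with the blank median subtracted, and -0.05 against 0.69 as scanned. In the authors' deposited table they were -0.15 against -0.01.

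Among the 100, 11 were at least 2-fold lower in INS CMP cells, against 3.12% of detected probes, and 4 were at least 2-fold higher, against 3.03%. The other 85 lay within 2-fold. The SD of the log2 ratio was 0.68 over the 100 and 0.48 over all detected probes of this array. Counts moved with the scaling, for the 100 and for all detected probes. With median centring 14 were lower and 1 higher, against 4.56% and 2.67%. With the local background subtracted these were 18 and 15, against 20.6% and 15.9%, and with the blank median subtracted 19 and 4, against 23.6% and 12.5%. The authors' deposited table gave 19 and 6, against 15.3% and 11.1%. An offset of 10 gave 17 and 9, against 7.54% and 5.35%. The lower count thus exceeded the background share with both offsets, median centring and the authors' deposited table, and lay below it with either plain subtraction.

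**Figure D4:**
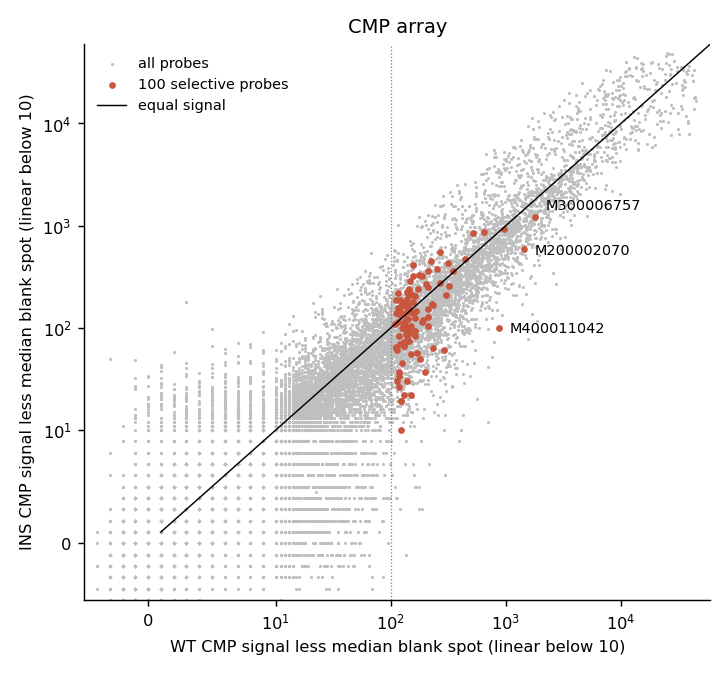
INS against WT signal on the CMP array, both less the median blank spot and logarithmic above 10, for all probes (grey) and the 100 (red), with a dotted line at a WT signal of 100 and a solid line of equal signal. The red points start right of the dotted line by the rule and spread from 10 to 1218 in INS; M400011042 (WT 873, INS 100) lies far below the solid line.

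Non-members with a WT CMP signal in the same range (3198 probes) had a median log2 ratio of -0.17, with 11.6% at least 2-fold lower and 8.47% higher. The share of lower probes among the 100 (11) was thus close to that of other probes in this range, while the share of higher probes (4) was smaller. Only the range was shared, and brightness within it was not matched. When probes were taken on the INS channel instead, the median log2 ratio was 0.70, with 19 higher and 1 lower. Sets chosen on the WT and on the INS channel thus had different median ratios on this array. Each choice used a channel that enters the ratio, so this difference is a description and not an independent result.

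M400011042 was the member most reduced in INS CMP cells, 5.26-fold (log2 -2.39), and 5.26-fold to 10.8-fold over 7 ways of computing the ratio. Its local background in WT was 75, well under its signal of 873. In B cells it was also lower in INS (log2 -1.13, WT 75 and INS 17). M400000506 was next, 2.61-fold lower (log2 -1.39), with a WT CMP signal of 292 and an INS signal of 61. Its WT signals elsewhere were 7, 1, 16 and 0 and its INS signals 18, 2, 36 and 2. Its local background was 237 in WT, which leaves 69 of its signal. Over the 11 lower probes, INS CMP signals had a median of 30 and ranged from 10 to 584, and WT from 122 to 1422. The offset compresses ratios of such dim probes. M200012578, also picked after its values were seen, fell by 1.32 on the log2 scale with a WT signal of 122 and an INS signal of 10, and without offset its blank-subtracted log2 ratio was -3.61.

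The highest member ratio in CMP cells was that of M400013243, 2.51-fold higher in INS (log2 1.33), with a WT signal of 156 and an INS signal of 408. It was 1.61-fold to 2.98-fold higher over the 7 ways of computing the ratio, and beyond 2-fold in 6 of them. Its WT signals elsewhere were 40 to 61 and its INS signals 67 to 118, so the CMP array was highest in both channels. M300015272 followed at 2.11-fold (log2 1.08; WT 268, INS 549). It was 1.28-fold to 2.38-fold higher over the 7 ways of computing the ratio, and beyond 2-fold in 5 of them. Higher ratios were small: the 4 probes ran from log2 1.02 to 1.33.

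On the other 4 arrays the rule bounds the WT signal from above and leaves INS free. The median log2 ratio of the 100 was 0.01 in the CLP culture, 0.02 in B cells, 0.01 in the KSL culture and 0.02 in T-ALL, close to 0 like the medians of all detected probes. As scanned, the log2 ratio had medians of 0.79, 1.18, 1.40 and 1.44, against 0.89, 1.29, 1.42 and 1.43 over detected probes. Within 2-fold on all 4 arrays were 87 probes. The joint share over all detected probes is not given here, and the shares on each array follow below. The spread was smallest in the KSL culture, with an SD of 0.20 over the 100 and 0.18 over all detected probes.

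**Figure D5:**
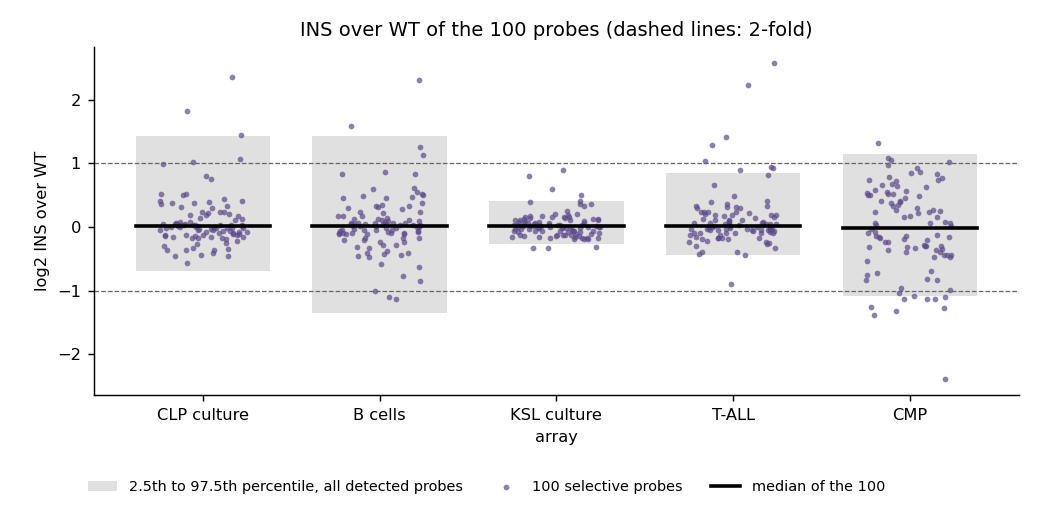
Log2 INS over WT (vertical axis, dashed lines at 2-fold) of the 100 probes on each array, with black bars for their median and grey boxes for the central range of all detected probes. Medians lie between -0.01 and 0.02 on all 5 arrays, the widest spread is on the CMP array, and single probes reach 5.99-fold higher in INS in T-ALL.

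In the CLP culture the INS signal was at least 2-fold above WT for 5 of the 100 and as far below for 0, against 5.04% and 0.854% of detected probes. In B cells 4 were higher and 3 lower, against 4.88% and 3.97%. In the KSL culture 0 were higher or lower, against 0.161% and 0.0208%. These shares lay near the background of each array. In T-ALL 5 were higher and 0 lower, against 1.82% and 0.599%. The difference was not tested. On all 4 of these arrays the rule caps the WT signal of the 100, the denominator, but not that of all detected probes. The counts and shares are therefore not on equal terms. Some single probes carried large INS signals.

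In INS T-ALL cells M400004275 had a signal of 634, against 16 in WT T-ALL (5.99-fold after processing) and 154 in WT CMP cells. Its INS signals in the CLP culture, B cells, KSL culture and CMP were 44, 103, 27 and 208. M200005492 had 609 in INS T-ALL against 31 in WT, a 4.71-fold difference. In both, INS T-ALL cells were thus the only leukemic or cultured INS cells above 200, and WT T-ALL cells were low.

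In INS B cells M200004998 had a signal of 394 against 9 in WT (4.93-fold), and it was also higher in INS T-ALL (182 against 7, log2 1.42). Its CMP signals were 155 in WT and 139 in INS. M200002583 had 286 in INS B cells against 94 in WT, within 2-fold after processing. In the INS CLP culture M200002070 led with 882 against 98 in WT, and M300001793 followed with 406 against 56 (3.54-fold). M300001793 also had high signals in CMP cells, at 520 in WT and 847 in INS. The local background around that spot was 388 in WT and 653 in INS, so its WT signal less that background was only 146. In the KSL culture the highest INS signals were 383 for M200016029 (WT 80, 1.86-fold) and 275 for M300012030 (WT 95, 1.28-fold). Neither reached 2-fold there.

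The spots of the 100 lay in all 24 printing blocks of the array, with 1 to 9 per block, and none was flagged by the scanner software. None of 2736 blank spots, 1102 spots without a probe and 96 negative control spots met the rule at the signal of rank 100. Their highest WT CMP signals were 20, 13 and 5. Local background in WT had a median of 72.5 around the 100, against 16 around all probes. It made up a median of 37.5% of their foreground, next to 35.6% for non-members in the same range of signal. After its subtraction 51 of the 100 kept a WT signal of at least 100 and 77 of at least 50. When the rule was applied to signals less the local background, 45 probes were the same.

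By the same rule the other arrays gave brighter sets. The probe of rank 100 had a WT signal of 285 in B cells, 196 in the KSL culture, 150 in T-ALL and 146 in the CLP culture, against 109 in CMP cells. On their own arrays, 94 of 100 B cell probes were at least 2-fold lower in INS and 0 higher (median log2 -2.51). The counts were 26 and 18 for the CLP culture (median -0.59), 14 and 5 for T-ALL (median 0.01) and 0 and 6 for the KSL culture (median 0.03), next to 11 and 4 for the CMP. The shares of all detected probes on each array are those given above. Each set was chosen by the WT signal of its own array, which is the denominator of these ratios. The counts are therefore a description and not an independent result. INS signal at least 2 times that on the other arrays was found for 92 T-ALL probes (6.21% of all probes), 69 KSL culture probes (5.77%), 61 B cell probes (4.51%), 29 CLP culture probes (3.66%) and 26 CMP probes (1.22%). Gain and brightness differed between these arrays. Differences between the sets were not tested.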

How the data were processed

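Total RNA of pooled cells was amplified to amino allyl aRNA and labelled with Cy5 (WT) or Cy3 (INS), per the labels. The deposited scanner files hold linear spot intensity and local background for both dyes, and per the file headers no normalization or background subtraction was applied and the ratio is Cy3 over Cy5 by wavelength. The authors' deposited table holds log2 ratios with scale, centring and direction unstated; its column medians are near 0, and it was used as an alternative only. No source used here names the image software.

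The members and lists were chosen with earlier results of these data known. Foreground medians were used less the median blank spot; the one probe spotted 2 times was averaged. Ratios used limma 3.58.1 in R 4.3.3: normexp (offset 50, local background not used), then loess within the array (span 0.3, control spots at weight 0). A run of the code on simulated data was also made, but its outcome is not given here. Nothing on the accuracy of ratios of dim probes, such as most of the 100, is drawn from it. A probe was detected above the blank mean plus 2 SD (5% trimmed at each end), and background shares are over probes detected in at least 1 channel. Named probes were the 5 brightest, the 2 on each side of the limit of 100 members, the 2 highest and 2 lowest CMP ratios, and the 2 highest INS signals on each other array; others are marked in the text. Gene lists fixed for myeloid, erythroid, lymphoid and stromal cells and the IL7R pathway could not be evaluated without gene names. The number of arrays limits the precision.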

Additional observations from a re-analysis of the deposited data

Results flagged for a closer look

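Some members were 2-fold higher in INS in one setting and 2-fold lower in another. With 1 array per setting, these differences were not tested. Among the 100 probes there were 2 such cases. Of all 23473 probes, 436 were such cases, counted only where detected. The 2 are described as single probes and not as a trait of the 100. M200002070 had log2 INS over WT of 2.35 in the CLP culture, -1.10 in B cells and -1.10 in CMP cells; its CMP ratio turned to 0.49 with the local background subtracted. Its INS signal in B cells was -1 relative to the blank, so that ratio rests on a WT signal of 49 alone. M300012030 had 1.45 in the CLP culture, -1.01 in B cells and 1.04 in T-ALL; the B cell ratio, its only lower one, was between -2.16 and -0.84 over 7 ways of computing it and under 2-fold in 1 of them. Its signals were 52 in WT and 284 in INS in the CLP culture, 98 and 44 in B cells, and 5 and 111 in T-ALL, so at least 1 channel was dim each time.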

How the results depend on the processing

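No paired analysis was possible because each group has 1 sample. On the CMP array the median log2 ratio of the 100, -0.01, became -0.22 with median centring, -0.29 with the blank median subtracted, -0.15 in the authors' deposited table and -0.19 for members under 50 elsewhere. It was above 0 for 50 members (0.07), for members chosen after subtraction of the local background (0.08) and with an offset of 10 (0.0015). The 11 probes at least 2-fold lower became 19, 18, 17 and 19 with the blank median subtracted, the local background subtracted, an offset of 10 and the authors' deposited table. With 50 members 6 were lower (4 higher), and with 200 members 14 (8 higher). The 4 higher became 1 with median centring, 15 with the local background subtracted and 9 with an offset of 10. All 100 stayed above the blank limit in INS CMP cells, except 98 with the local background subtracted or with members under 50 elsewhere. The 26 probes with INS CMP signal at least 2 times that on other arrays became 93 with each channel scaled and 23 with the local background subtracted, settings chosen after seeing the data. With only the blank median subtracted, medians of all detected probes lay at 0.38 to 1.04 on the other arrays and -0.17 on the CMP array. Of 32 ratios at least 2-fold apart, 31 kept their sign over 7 ways of computing them and 25 stayed beyond 2-fold. Cuts of 50 and 200 on the WT signal gave sets that shared 26 and 16 probes with the 100, so membership depends on the cut.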
